A study of Mus musculus with 64 samples.

Results

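*Spn* and *Lcp2* encode proteins that blood cells use to set their surface and to pass on signals from it. Sialophorin, the product of *Spn* (also known as CD43 or leukosialin), is a long, heavily O-glycosylated and sialylated mucin of the leukocyte surface. Its short cytoplasmic tail binds the ezrin, radixin and moesin proteins that link it to the cortical cytoskeleton, and the molecule can keep cells apart as well as serve as a ligand for lectins. *Lcp2* encodes SLP-76, an adapter without enzymatic activity that is phosphorylated by Syk family kinases downstream of ITAM-bearing receptors and then holds together Vav exchange factors, Nck, phospholipase Cγ and Tec family kinases. Both genes are best known from T cells, and both are also used in myeloid cells, where SLP-76 acts in signalling from Fc receptors and integrins.

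Both genes were selected on their lower read counts with BaP at 20 h in *Ahr*+/+ BMMs. They are 2 of the 55487 genes in the count files and of the 14537 genes that passed the filter on low counts. Values of the contrast that chose them are therefore given as a description and without a test. *Spn* (ENSMUSG00000051457.7) lies on the minus strand of chromosome 7 at 127132232 to 127137823 of GRCm38, has 4 exon blocks with 4681 bases in all, and overlaps no other annotated gene. *Lcp2* (ENSMUSG00000002699.13) lies on the plus strand of chromosome 11 at 34046920 to 34092295, with 21 exon blocks and 4459 bases of exon. The gene 4930469K13Rik overlaps it on the opposite strand, and reads were counted by strand.

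The 64 RNA-seq libraries come from BMMs, macrophages grown from bone marrow in medium conditioned by L929 cells, with 4 libraries in each of 16 groups. The donors were female mice aged 8 to 12 weeks, either *Ahr*+/+ of strain C57BL/6JRj or *Ahr*-/- on a C57BL/6 background that had been crossed back to the *Ahr*+/+ strain, with 4 mice per genotype. AhR is a ligand-activated transcription factor. BaP (benzo[a]pyrene, 1 µM) is a polycyclic aromatic hydrocarbon and AhR ligand, I3C (indole-3-carbinol, 10 µM) a dietary indole from which AhR ligands form, and every group received the vehicle DMSO (0.01%). After 6 h with BaP, I3C or DMSO alone, BMMs received 10000000 bacteria per ml of *Salmonella enterica* Serovar Enteritidis that had been killed by heat (hk *S*.E.), which is called activation here and lasted 3 h or 20 h, and 1 further DMSO group per genotype and time point received no hk *S*.E. and is called resting. The mice of both genotypes came from different suppliers originally, and the number of backcrosses is not given in the sources used here.

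Libraries held 12152496 to 50644601 counts on genes (median 24499165 over all libraries), apart from 1 with 233047331, replicate 4 of the resting *Ahr*+/+ BMMs at 20 h. *Spn* had 291 to 12736 counts and *Lcp2* 1393 to 27954 counts per library. Counting error alone is thus at most 5.86% for *Spn* and 2.68% for *Lcp2*. *Ahr* counts were not lost in the *Ahr*-/- BMMs, where group means ran from 6.63 to 24.8 CPM (read counts scaled to a common TMM-adjusted library size) against 3.17 to 13.0 CPM in *Ahr*+/+ BMMs. A count over all exons does not show whether a protein is made. *Ahrr*, a target gene of AhR, separated the genotypes with BaP at 3 h, with 5.37 ± 1.201 CPM (SD, n = 4) against 0.514 ± 0.112 CPM after DMSO in *Ahr*+/+ BMMs and 0.184 ± 0.127 CPM against 0.235 ± 0.0839 CPM in *Ahr*-/- BMMs. *Nqo1*, another AhR target, was at 17.1 ± 5.47 CPM with BaP and 10.2 ± 1.89 CPM after DMSO in *Ahr*+/+ BMMs at 3 h.

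All 8 macrophage markers were present in every library, with a summed level of 18609 to 35732 CPM. Since sialophorin and SLP-76 are also abundant in lymphocytes, markers of other cells were listed as well. Of 10 T cell genes, 6 had no count in more than 32 of the 64 libraries, and the CD3 chains *Cd3d*, *Cd3e* and *Cd3g* reached no more than 0.165, 0.127 and 0.0974 CPM. The summed T cell list was 0.953 to 9.90 CPM, with *Lck*, *Cd4* and *Cd5* reaching 8.40, 2.58 and 1.73 CPM. NK cell markers summed to at most 0.247 CPM, B cell markers to 1.12 CPM and fibroblast markers to 4.07 CPM. The lists of granulocyte, dendritic cell and of mast cell and megakaryocyte genes reached 245 CPM, 39.6 CPM and 138 CPM, carried by *S100a8*, *S100a9* and *Ngp*, by *Ccr7* and by *Pf4*, while *Ly6g*, *Mpo*, *Elane*, *Ctsg*, *Xcr1*, *Siglech*, *Cpa3* and *Ms4a2* had no count in more than 32 libraries each. In bulk RNA, fewer cells of a type and less RNA per cell cannot be told apart.

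The sequence before each start site is shown because the genes were chosen on a response to an AhR ligand, and AhR binds short response elements (AHRE). The sequences are from RefSeq on GRCm38.p6, read on the strand of the gene and ending just before its annotated start, at chr7:127137824-127138073 for *Spn* and chr11:34046678-34046919 for *Lcp2*. Capitals would mark a response element.
Spn: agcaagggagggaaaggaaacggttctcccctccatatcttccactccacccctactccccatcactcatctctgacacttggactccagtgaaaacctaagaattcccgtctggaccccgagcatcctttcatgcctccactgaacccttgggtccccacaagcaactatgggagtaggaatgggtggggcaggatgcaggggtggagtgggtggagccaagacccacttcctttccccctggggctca
Lcp2: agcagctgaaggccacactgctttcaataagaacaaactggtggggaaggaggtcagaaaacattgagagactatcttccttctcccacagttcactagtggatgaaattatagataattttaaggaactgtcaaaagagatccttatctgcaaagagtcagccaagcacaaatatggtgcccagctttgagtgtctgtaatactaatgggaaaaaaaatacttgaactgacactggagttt

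None of the letters is a capital, since on either strand of the RefSeq window of 300 bases around the start neither gene held AHRE I (GCGTG), AHRE II (CATGNNNNNNCATG or CATGNNNNNNCTTG) or the RelB AHRE (GGGTGCAT). Of 32851 windows of this length, 32.4% held AHRE I, 1.65% AHRE II and 0.521% the RelB AHRE. The absence of a match concerns these letters in this window only. The paper, which searched a longer stretch upstream for the same motifs, lists *Spn* as holding a response element and *Lcp2* among genes without one. The sequence of *Spn* has 56.8% G and C and 3 CpG, that of *Lcp2* 40.1% and 0 CpG.

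*Lcp2* was the more abundant of the genes in every library. Per kb of exon, its level was 15.4 to 18.6 CPM in resting BMMs at 3 h, 180 to 217 CPM in activated BMMs at 3 h, 63.1 to 120 CPM in activated BMMs at 20 h and 15.4 to 20.1 CPM in resting BMMs at 20 h. *Spn* on the same scale was at 4.31 to 6.44 CPM, 4.66 to 8.46 CPM, 8.69 to 34.8 CPM and 5.42 to 9.17 CPM. *Lcp2* thus stood high early and *Spn* late after activation. The ratio of the *Lcp2* to the *Spn* level per kb in *Ahr*+/+ BMMs was 3.32 ± 0.279 (SD, n = 4) at rest at 3 h, 32.7 ± 3.75 after DMSO and hk *S*.E. at 3 h and 4.84 ± 0.708 at 20 h.

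**Figure D1:**
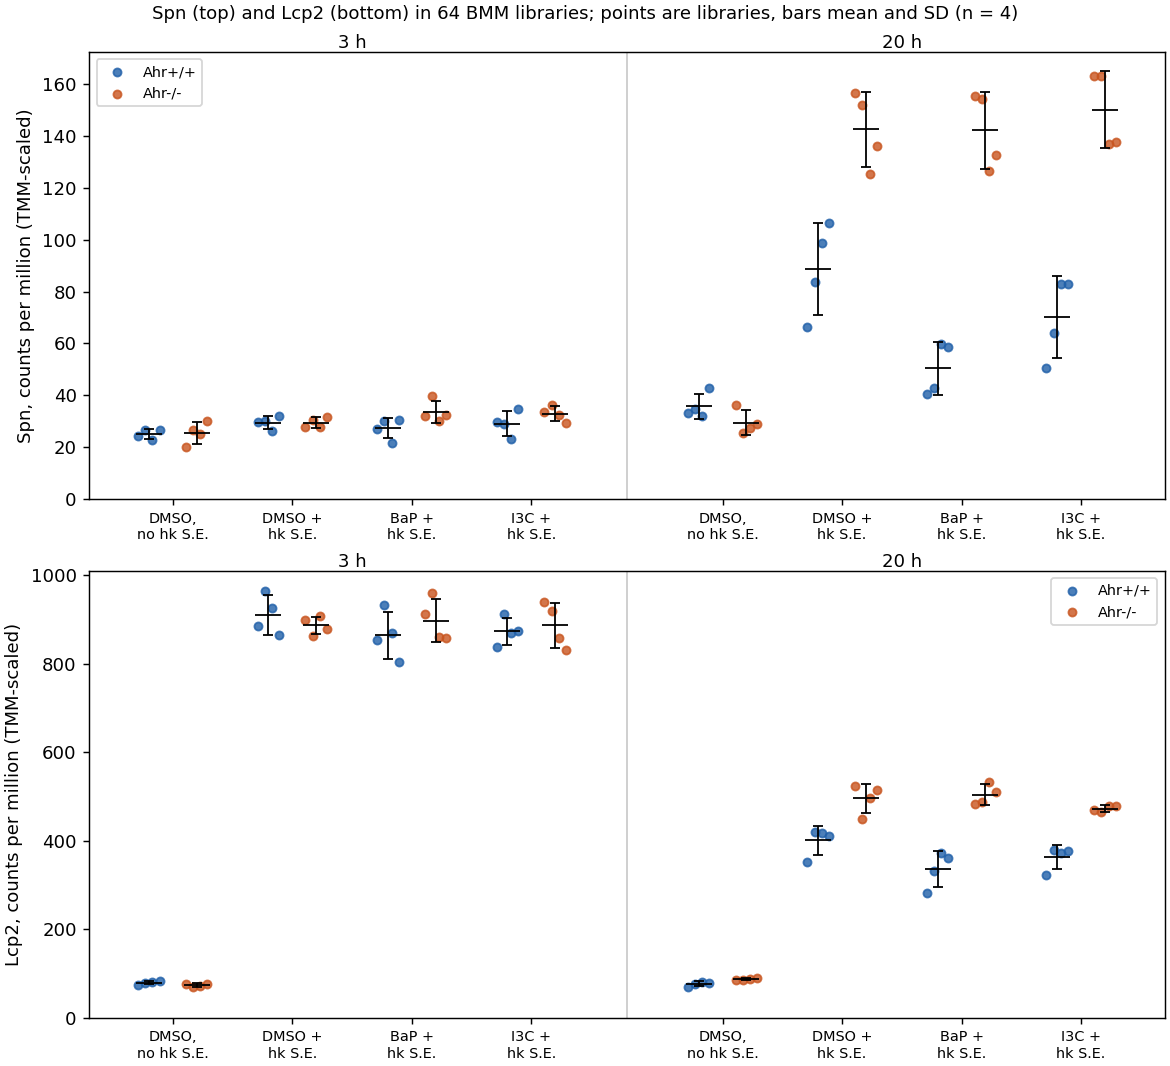
CPM of *Spn* (top) and *Lcp2* (bottom) in each of the 64 libraries by treatment (x axis), time point and genotype, with points for libraries and bars for mean and SD of 4. *Lcp2* is at 804 to 965 CPM in all activated libraries at 3 h, and *Spn* is at 125 to 163 CPM in activated *Ahr*-/- and 40.7 to 106 CPM in activated *Ahr*+/+ libraries at 20 h.

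In the order of the 16 group means, the highest *Spn* levels were those of *Ahr*-/- BMMs at 20 h with I3C (150 ± 14.9 CPM, SD, n = 4), DMSO (142 ± 14.4 CPM) and BaP (142 ± 14.8 CPM), whose libraries overlapped. Next came the activated *Ahr*+/+ BMMs at 20 h with DMSO (88.8 ± 17.7 CPM), I3C (70.2 ± 15.8 CPM) and BaP (50.5 ± 10.2 CPM), and then resting *Ahr*+/+ BMMs at 20 h (35.8 ± 4.92 CPM). The other 9 groups, which are all groups of 3 h and resting *Ahr*-/- BMMs at 20 h, lay between 25.1 and 33.6 CPM. Of the 15 pairs of neighbours in this order, only that of *Ahr*-/- BMMs with BaP and *Ahr*+/+ BMMs with DMSO at 20 h had no overlap of libraries.

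For *Lcp2*, the 6 activated groups of 3 h were at 865 to 911 CPM and overlapped. They were followed by activated *Ahr*-/- BMMs at 20 h (473 to 504 CPM) and activated *Ahr*+/+ BMMs at 20 h (401 ± 32.3 CPM with DMSO, 363 ± 26.6 CPM with I3C and 336 ± 40.7 CPM with BaP), and at the end by the 4 resting groups (73.5 to 87.3 CPM). Of its 15 pairs of neighbours, 4 had no overlap, those between these blocks and the one of resting *Ahr*-/- BMMs at 20 h (87.3 ± 1.91 CPM) with resting *Ahr*+/+ BMMs at 3 h (79.1 ± 3.85 CPM).

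Over the 16 group means of log2 CPM, *Spn* and *Lcp2* had a Pearson r of 0.18 and a Spearman rho of 0.07. The genes most like *Spn* by Pearson r were *Raver2* (0.984), *Hspe1* (0.982), *Pim2* (0.978), *Wdr55* (0.978) and *Camkk1* (0.976), of which *Raver2* and *Camkk1* stayed below 1 CPM in all 16 groups. *Pim2* encodes a serine/threonine kinase and *Hspe1* the mitochondrial co-chaperonin HSP10. Those most like *Lcp2* were *Pnp2* (0.998), *Pde4b* (0.997), *Bcl2a1b* (0.996), *Zc3h12a* (0.996) and *Cxcl1* (0.996). These include the cAMP phosphodiesterase 4B, an antiapoptotic BCL2 relative with near-identical copies, the endonuclease regnase-1 and a neutrophil chemokine. All of these values are descriptions over group means, in which groups share time points, treatments and genotypes. By rank correlation *Fam122a* (0.95) was most like *Spn* and *Ube2e2* (0.982) most like *Lcp2*.

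**Figure D2:**
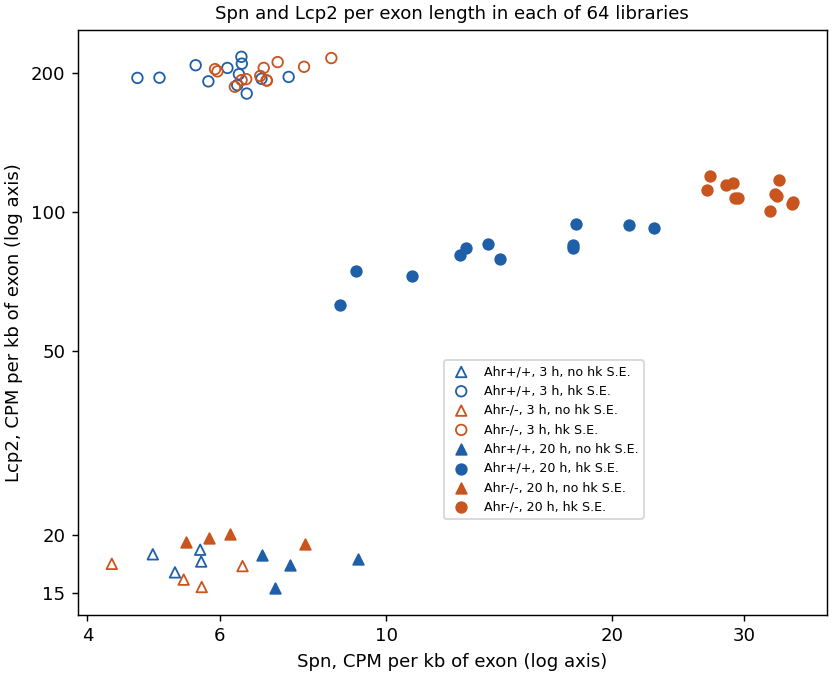
Levels of *Spn* (x axis) and *Lcp2* (y axis) in CPM per kb of exon, both on log axes, with 1 point for each of the 64 libraries. Libraries of 3 h differ along the *Lcp2* axis between resting (15.4 to 18.6) and activated BMMs (180 to 217), and activated libraries of 20 h differ between genotypes mainly along the *Spn* axis (8.69 to 22.7 in *Ahr*+/+ and 26.8 to 34.8 in *Ahr*-/- BMMs).

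A gene is called higher or lower here where its edgeR adjusted p, over all genes tested, is under 0.01. The labels do not tie libraries to single mice, so the p-values measure the spread between libraries. To ask how the genes respond to bacteria alone, BMMs with DMSO and hk *S*.E. were compared with resting BMMs. *Lcp2* rose strongly and early in both genotypes, whereas *Spn* passed the test in the comparisons at 20 h and not in those at 3 h. Resting *Ahr*+/+ BMMs at 3 h had 74.1, 78.2, 81.1 and 83.0 CPM of *Lcp2*, and activated ones 885, 965, 926 and 865 CPM. All activated libraries were far above all resting ones. The fold was 11.5 (log2 fold change 3.53, SE 0.08, edgeR adjusted p = 1.09e-41), where 24.2% of all genes tested were called higher. For *Ahr*-/- BMMs, 77.3, 68.9, 71.5 and 76.4 CPM stood against 898, 864, 908 and 878 CPM, a fold of 12.1 (log2 fold change 3.59, SE 0.08, edgeR adjusted p = 5.29e-42), with 25.5% of genes called higher. At 20 h, the fold of *Lcp2* was smaller, 5.25 in *Ahr*+/+ (log2 fold change 2.39, SE 0.07, edgeR adjusted p = 1.15e-34) and 5.68 in *Ahr*-/- BMMs (log2 fold change 2.51, SE 0.07, edgeR adjusted p = 2.00e-35). The shares of all genes called higher were 29.9% and 28.3%.

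For *Spn* at 3 h, resting *Ahr*+/+ BMMs had 24.5, 26.5, 22.9 and 26.5 CPM and activated ones 29.8, 30.0, 26.1 and 31.9 CPM. The groups overlapped, and the log2 fold change was 0.23 (SE 0.15, edgeR adjusted p = 0.164). The corresponding value in *Ahr*-/- BMMs was 0.21 (SE 0.14, edgeR adjusted p = 0.203). These small values depend on the scaling. With library totals in place of TMM factors, an alternative chosen after seeing the data, they were -0.44 (edgeR adjusted p = 0.00378) and -0.46 (edgeR adjusted p = 0.00252), while the median of all genes moved from -0.10 and -0.08 to -0.78 and -0.75. Over the alternatives, the adjusted p ran from 0.00378 to 0.506 in *Ahr*+/+ and from 0.00252 to 0.333 in *Ahr*-/- BMMs, so no direction of *Spn* at 3 h can be given independently of scaling. *Lcp2* stayed at 2.85 and 2.92 under library totals.

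At 20 h, *Spn* was higher after activation. In *Ahr*+/+ BMMs, resting libraries had 33.3, 34.8, 32.02 and 42.9 CPM and activated ones 66.4, 83.8, 98.8 and 106 CPM. The lowest activated library was above the highest resting one. The fold was 2.48 (log2 fold change 1.31, SE 0.14, edgeR adjusted p = 8.35e-12), and the log2 fold change was 1.41 without the resting library of 233047331 counts. This comparison shares its activated libraries with the contrast that chose the genes. In *Ahr*-/- BMMs, which share none, resting libraries had 36.5, 25.4, 27.2 and 29.0 CPM and activated ones 156, 152, 125 and 136 CPM. The groups were far apart, with a fold of 4.82 (log2 fold change 2.27, SE 0.15, edgeR adjusted p = 5.41e-20).

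Beside *Spn* at 20 h, the summed T cell list was at 3.10 to 5.06 CPM in resting and 1.48 to 2.28 CPM in activated *Ahr*+/+ BMMs at 20 h and 2.97 to 3.95 against 1.03 to 2.02 CPM in *Ahr*-/- BMMs. The dendritic cell list, mainly *Ccr7*, was higher with activation at 20 h, at 20.3 to 39.6 against 0.691 to 1.53 CPM in *Ahr*+/+ and 3.82 to 8.54 against 0.247 to 0.525 CPM in *Ahr*-/- BMMs. Beside the rise of *Lcp2* at 3 h, the granulocyte list was at 104 to 238 CPM in activated and 14.6 to 37.3 CPM in resting *Ahr*+/+ BMMs, and at 105 to 110 against 18.3 to 21.4 CPM in *Ahr*-/- BMMs. Over all libraries, its members *S100a9*, *S100a8*, *Ngp* and *Camp* reached 111, 73.0, 56.4 and 5.29 CPM, and *Ly6g*, *Mpo*, *Elane* and *Ctsg* no more than 0.482, 0.275, 0.197 and 0.161 CPM. The T cell list at 3 h was at 4.64 to 9.90 CPM in activated and 1.75 to 2.91 CPM in resting *Ahr*+/+ BMMs, and at 4.15 to 5.92 against 2.08 to 2.95 CPM in *Ahr*-/- BMMs, without overlap. Of its 10 genes, 1 in activated *Ahr*+/+ and 2 in activated *Ahr*-/- BMMs had a mean above 1 CPM. *Cd3e* and *Zap70* had no count in either of these groups. The part of these lists in the results was not tested.

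Over time, the genes moved in opposite directions in activated BMMs. From 3 h to 20 h after DMSO and hk *S*.E., *Spn* rose 3.02-fold in *Ahr*+/+ (log2 difference 1.59, SE 0.15, edgeR adjusted p = 3.03e-14) and 4.83-fold in *Ahr*-/- BMMs (2.27, SE 0.15, edgeR adjusted p = 8.75e-20). *Lcp2* was 2.27-fold lower in *Ahr*+/+ (log2 difference -1.18, SE 0.07, edgeR adjusted p = 6.89e-22) and 1.79-fold lower in *Ahr*-/- BMMs (-0.84, SE 0.07, edgeR adjusted p = 4.80e-16). Of all genes tested, 33.0% and 31.7% were called higher and 26.4% and 24.3% lower at 20 h in the genotypes in this order. The *Ahr*+/+ values share their 20 h libraries with the contrast that chose the genes. In these *Ahr*-/- BMMs, library identifiers are of one series (by first letters and digits) at 3 h and of another at 20 h. Time and series cannot be told apart there.

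Resting BMMs changed less over time in these genes than activated ones. *Spn* was at 25.1 ± 1.76 CPM at 3 h and 35.8 ± 4.92 CPM at 20 h in *Ahr*+/+ BMMs without overlap, a log2 difference of 0.51 (SE 0.14, edgeR adjusted p = 0.0115) that missed the threshold and passed it under 4 alternatives. Without the very deep library it was 0.41 (edgeR adjusted p = 0.0872). Its log2 difference in *Ahr*-/- BMMs was 0.21 (SE 0.14, edgeR adjusted p = 0.390). *Lcp2* in resting *Ahr*-/- BMMs was higher at 20 h, at 87.3 ± 1.91 against 73.5 ± 4.02 CPM, a log2 difference of 0.25 (SE 0.07, edgeR adjusted p = 0.00977) that was no longer called in 7 of 8 fits with 1 library removed. In *Ahr*+/+ BMMs it was -0.05 (SE 0.07, edgeR adjusted p = 0.706). Called shares of all genes were 6.07% in *Ahr*+/+ and 6.98% in *Ahr*-/- BMMs. Of the resting *Ahr*-/- libraries, 3 of those at 3 h were of a different identifier series from those at 20 h.

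**Figure D3:**
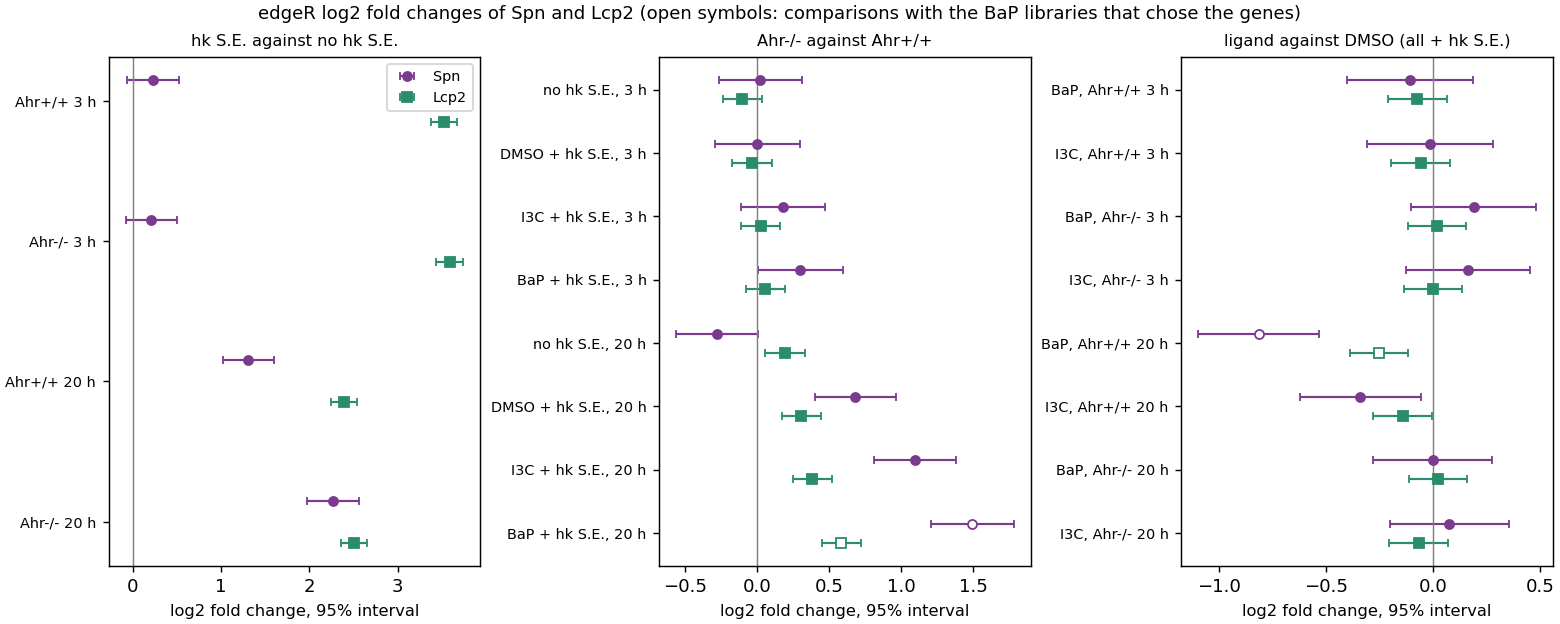
Log2 fold changes (x axis, with 95% intervals from edgeR) of *Spn* (circles) and *Lcp2* (squares) for activation, genotype and ligands, with open symbols for comparisons that use the BaP libraries by which the genes were chosen. Intervals of genotype values exclude 0 in activated BMMs of 20 h (0.68 for *Spn* and 0.31 for *Lcp2* after DMSO). They also exclude 0, without a call, for *Lcp2* at rest at 20 h (0.19) and *Spn* with BaP at 3 h (0.30). The intervals of all ligand comparisons in *Ahr*-/- BMMs include 0.

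Loss of *Ahr* went with higher levels of both genes in activated BMMs at 20 h. After DMSO and hk *S*.E., *Spn* was at 66.4, 83.8, 98.8 and 106 CPM in *Ahr*+/+ and 156, 152, 125 and 136 CPM in *Ahr*-/- BMMs, and every *Ahr*-/- library was above every *Ahr*+/+ library. The fold was 1.60 (log2 difference 0.68, SE 0.14, edgeR adjusted p = 2.55e-04). *Lcp2* was at 353, 421, 419 and 412 CPM in *Ahr*+/+ and 524, 448, 497 and 514 CPM in *Ahr*-/- BMMs. These groups did not overlap either, with a fold of 1.24 (log2 difference 0.31, SE 0.07, edgeR adjusted p = 6.52e-04). In this comparison 5.06% of all genes were called higher in *Ahr*-/- BMMs, and its *Ahr*+/+ libraries are those of the contrast that chose the genes.

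With I3C and hk *S*.E. at 20 h, in libraries that the choice did not use, *Spn* was at 50.7, 63.97, 83.0 and 83.1 CPM in *Ahr*+/+ and 163, 163, 137 and 138 CPM in *Ahr*-/- BMMs. The gap between the groups exceeded the range within either. The fold was 2.14 (log2 difference 1.10, SE 0.14, edgeR adjusted p = 3.60e-08). *Lcp2* was at 324, 379, 373 and 378 CPM in *Ahr*+/+ and 469, 465, 479 and 479 CPM in *Ahr*-/- BMMs, with a fold of 1.30 (log2 difference 0.38, SE 0.07, edgeR adjusted p = 2.32e-05). Of all genes, 7.47% were called higher here. With BaP, where the *Ahr*+/+ libraries chose the genes, the folds were 2.81 for *Spn* and 1.497 for *Lcp2*, given without a test.

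The remaining genotype comparisons made no call. At 3 h, *Spn* was 25.1 ± 1.76 CPM in *Ahr*+/+ and 25.5 ± 4.13 CPM in *Ahr*-/- BMMs at rest, and 29.5 ± 2.44 and 29.5 ± 2.01 CPM after DMSO and hk *S*.E., with log2 differences of 0.02 and -0.00 (edgeR adjusted p = 1 in both). With I3C and BaP at 3 h, they were 0.18 (SE 0.15, edgeR adjusted p = 0.543) and 0.30 (SE 0.15, edgeR adjusted p = 0.198). *Lcp2* at 3 h differed by -0.11 at rest, -0.04 with DMSO, 0.02 with I3C and 0.05 with BaP (edgeR adjusted p = 0.683 to 0.908). At rest at 20 h, *Spn* was at 29.5 ± 4.86 CPM in *Ahr*-/- and 35.8 ± 4.92 CPM in *Ahr*+/+ BMMs, with overlap (log2 difference -0.28, SE 0.14, edgeR adjusted p = 0.417). *Lcp2* had 85.3, 86.2, 88.0 and 89.6 CPM in *Ahr*-/- and 68.5, 76.9, 80.9 and 79.4 CPM in *Ahr*+/+ BMMs, which did not overlap, with a log2 difference of 0.19 (SE 0.07, edgeR adjusted p = 0.165). The shares of all genes called were 1.21%, 2.83%, 2.85% and 4.88% at 3 h for rest, DMSO, I3C and BaP, and 0.702% at rest at 20 h.

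Whether activation itself differs between genotypes was tested as the difference of the activation log2 fold changes. At 20 h, the log2 fold change of *Spn* on activation was larger in BMMs without *Ahr*, by 0.96 (SE 0.20, edgeR adjusted p = 8.10e-04), which is a further factor of 1.94. Its activated *Ahr*+/+ libraries are the DMSO libraries of the contrast that chose the genes. The difference for *Lcp2* was 0.11 (SE 0.10, edgeR adjusted p = 0.560, 95% interval -0.08 to 0.31). Of all genes, 4.41% were called. At 3 h, the differences were -0.02 for *Spn* and 0.07 for *Lcp2* (edgeR adjusted p = 1.00 for both), with 0.0138% of genes called. On the 16 libraries of the groups compared alone, the adjusted p for *Spn* at 20 h was 0.0101, which missed the threshold, in a range of 2.20e-05 to 0.0101 over the alternatives. Without the very deep resting library, the difference was 0.86 (edgeR adjusted p = 0.00429).

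The library identifiers fall into 4 series by their first letters and digits. At 20 h, every *Ahr*-/- library carries one series and every activated *Ahr*+/+ library another, so that genotype and series cannot be told apart there. Resting *Ahr*+/+ BMMs at 20 h include 1 library of the series of the *Ahr*-/- libraries. It had 33.3 CPM of *Spn* and 68.5 CPM of *Lcp2*, against means of 29.5 and 87.3 CPM in resting *Ahr*-/- BMMs and, for the 2 *Ahr*+/+ libraries of the other series, 37.5 and 80.1 CPM. A series term was estimated from the groups in which series varies, which for the series of these *Ahr*-/- libraries are resting groups only. Such a fit cannot separate genotype from series in activated BMMs of 20 h. With this term, the log2 difference after DMSO at 20 h was 0.79 for *Spn* (SE 0.20, edgeR adjusted p = 0.00711) and 0.31 for *Lcp2* (SE 0.09, edgeR adjusted p = 0.0282). With I3C at 20 h, it was 1.21 (SE 0.20, edgeR adjusted p = 2.12e-05) and 0.39 (SE 0.09, edgeR adjusted p = 0.00315). The call for *Lcp2* after DMSO was thus lost with this term, on the groups compared alone (edgeR adjusted p = 0.0455) and without *Ahr*+/+ replicate 1 (0.0105), and that for *Spn* after DMSO on the groups compared alone (0.0121). The edgeR adjusted p over all alternatives after DMSO ran from 2.46e-05 to 0.0121 for *Spn* and from 4.52e-06 to 0.0455 for *Lcp2*.

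After DMSO and hk *S*.E. at 20 h, only that of dendritic cells among the marker lists given here separated the genotypes. The dendritic cell list, most of it *Ccr7*, which activated macrophages also express, was at 20.3 to 39.6 CPM in *Ahr*+/+ and 3.82 to 8.54 CPM after hk *S*.E. with DMSO at 20 h in *Ahr*-/- BMMs. The T cell list was at 1.48 to 2.28 and 1.03 to 2.02 CPM, and the macrophage list at 18829 to 22840 and 20145 to 32147 CPM, both with overlap. In other groups, other lists did so too. The mast cell and megakaryocyte list at rest at 3 h was at 64.9 to 85.7 CPM in *Ahr*+/+ and 33.2 to 38.9 CPM in *Ahr*-/- BMMs. The part of the marker lists in the genotype differences was not tested.

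The contrast that chose the genes compared BaP with DMSO in activated *Ahr*+/+ BMMs at 20 h. *Spn* was at 40.7, 42.7, 59.9 and 58.7 CPM with BaP against 66.4, 83.8, 98.8 and 106 CPM with DMSO. The groups did not overlap, and the library with BaP was the lower in 4 of 4 pairs of the same replicate number. The log2 fold change was -0.82 (SE 0.14), a 1.76-fold lower level. *Lcp2* was at 281, 332, 373 and 360 CPM with BaP against 353, 421, 419 and 412 CPM with DMSO, overlapping between the groups and lower in 4 of 4 pairs of the same number, with a log2 fold change of -0.25 (SE 0.07), a 1.19-fold lower level. *Spn* was at 50.5 ± 10.2 CPM with BaP and 35.8 ± 4.92 CPM in resting BMMs of the same genotype and time, and these libraries overlapped. Of all genes, 0.234% were called in this contrast. By quantitative RT-PCR over a range of ligand doses, the paper reports *Spn* as raised, the opposite of its sequencing result.

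Every other ligand comparison was tested, and neither gene was called in any of the 7. I3C in *Ahr*+/+ BMMs at 20 h, which shares the DMSO libraries, gave a log2 fold change of -0.34 for *Spn* (SE 0.14, edgeR adjusted p = 0.574, unadjusted p = 0.0188) and -0.14 for *Lcp2* (SE 0.07, edgeR adjusted p = 0.794, unadjusted p = 0.0395). The libraries of I3C and DMSO overlapped for both genes, and the I3C library was the lower in 4 of 4 pairs of the same number for each. In *Ahr*-/- BMMs at 20 h, *Spn* was at 155, 154, 126 and 133 CPM with BaP against 156, 152, 125 and 136 CPM with DMSO. These values were nearly the same, with a log2 fold change of -0.00 (SE 0.14, edgeR adjusted p = 1, 95% interval -0.28 to 0.28). *Lcp2* with BaP had 0.02 (SE 0.07, edgeR adjusted p = 1, 95% interval -0.11 to 0.16). I3C in the same *Ahr*-/- BMMs gave log2 fold changes of 0.08 (95% interval -0.20 to 0.35) for *Spn* and -0.07 (95% interval -0.20 to 0.07) for *Lcp2* (edgeR adjusted p = 0.999 for both).

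At 3 h, the log2 fold changes in *Ahr*+/+ BMMs were -0.11 with BaP and -0.01 with I3C for *Spn* and -0.07 and -0.06 for *Lcp2* (edgeR adjusted p = 1 throughout). They were, in *Ahr*-/- BMMs, 0.19 and 0.16 for *Spn* and 0.02 and 0.00 for *Lcp2* (edgeR adjusted p = 0.7998 to 1). The shares of all genes called were 0.0482% with BaP and 0.131% with I3C in *Ahr*+/+ BMMs at 3 h, 0.0275% and 0.0206% in *Ahr*-/- BMMs at 3 h, 0.509% with I3C in *Ahr*+/+ BMMs at 20 h, and 0.0138% with BaP and 0.206% with I3C in *Ahr*-/- BMMs at 20 h. Few genes of any kind were called in these comparisons.

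BaP and I3C, a polycyclic aromatic hydrocarbon and an indole, were also compared directly, at doses that differ 10-fold. In *Ahr*+/+ BMMs at 20 h, where the BaP libraries chose the genes, the log2 difference between BaP and I3C was -0.48 (SE 0.14) for *Spn* and -0.11 (SE 0.07) for *Lcp2*, given without a test. The 3 tested comparisons did not call either gene. At 3 h, *Spn* differed by -0.09 (95% interval -0.39 to 0.20) in *Ahr*+/+ and 0.03 (95% interval -0.26 to 0.32) in *Ahr*-/- BMMs, and *Lcp2* by -0.01 (95% interval -0.15 to 0.12) and 0.02 (95% interval -0.12 to 0.15). In *Ahr*-/- BMMs at 20 h, the differences were -0.08 (95% interval -0.36 to 0.20) and 0.09 (95% interval -0.04 to 0.23). The *Lcp2* libraries of BaP and I3C did not overlap in this last comparison. The edgeR adjusted p was 1 in each of them, with 0.110%, 0.0206% and 0.186% of all genes called.

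As a test of whether a ligand effect depended on genotype, the log2 fold change in *Ahr*+/+ BMMs was subtracted from that in *Ahr*-/- BMMs. For I3C at 20 h, which shares the *Ahr*+/+ DMSO libraries with the choice, the difference was 0.42 for *Spn* (SE 0.20, edgeR adjusted p = 0.987, 95% interval 0.02 to 0.81) and 0.07 for *Lcp2* (SE 0.10, edgeR adjusted p = 0.987). At 3 h, it was 0.30 with BaP and 0.18 with I3C for *Spn* and 0.09 and 0.06 for *Lcp2* (edgeR adjusted p = 1.00 in all). The share of all genes called was 0.0138% with BaP at 3 h and 0% with I3C at either time point. At an unadjusted p below 0.05, edgeR had 241 and 287 genes for I3C at 3 h and 20 h (1.66% and 1.97% of all genes), and DESeq2 called 0 and 2. For BaP at 20 h, where the *Ahr*+/+ part chose the genes, the differences of 0.81 (SE 0.20) for *Spn* and 0.28 (SE 0.10) for *Lcp2* carry no test.

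The genes around sialophorin were taken as a list of 30, with its cytoskeletal linkers and binding partners, the enzymes that build and sialylate O-glycans, and γ-secretase, a protease complex that cuts membrane proteins such as sialophorin. All 30 passed the filter. After activation in *Ahr*+/+ BMMs at 20 h, 12 rose and 10 fell, with a median log2 fold change of 0.00 (-0.00 over all genes), where 29.9% of all genes were called higher and 28.7% lower. Of the 7 linkers and partners, 4 rose and 1 fell. *Msn*, the gene of moesin, rose from 651 ± 44.0 to 2373 ± 65.3 CPM (log2 fold change 1.87, edgeR adjusted p = 1.20e-27), and *Siglec1*, a macrophage lectin that binds sialylated glycans, from 134 ± 53.5 to 937 ± 199 CPM (2.81, edgeR adjusted p = 7.23e-15). Of the 5 γ-secretase genes, 3 rose.

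Of the 18 glycan genes, 5 rose and 9 fell in this comparison, beside 29.9% of all genes called higher and 28.7% lower. *St3gal1*, which adds sialic acid to core 1 O-glycans, rose from 74.3 ± 3.74 to 720 ± 45.5 CPM (log2 fold change 3.28, edgeR adjusted p = 9.55e-35). *Gcnt1*, which starts the core 2 branch on the same core, fell from 70.1 ± 6.33 to 7.58 ± 0.789 CPM (-3.21, edgeR adjusted p = 4.96e-28). *Galnt12* and *Galnt2*, which start O-glycans, fell from 18.3 ± 2.21 to 1.97 ± 0.275 CPM (-3.21, edgeR adjusted p = 8.41e-22) and from 2.28 ± 1.25 to 0.841 ± 0.462 CPM (-1.48, edgeR adjusted p = 0.00165). In *Ahr*-/- BMMs at 20 h, 11 of the 30 genes rose and 7 fell on activation, where 28.3% of all genes were called higher and 26.0% lower.

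For SLP-76, the list held 39 genes of ITAM signalling, of which 37 passed the filter. *Zap70*, a T cell kinase, was among those that did not, with at most 0.105 CPM in any library. After activation in *Ahr*+/+ BMMs at 20 h, 15 rose and 13 fell, with a median log2 fold change of 0.08 (-0.00 over all genes). These counts stood beside 29.9% of all genes called higher and 28.7% lower. The kinase *Syk*, which acts on SLP-76, rose from 431 ± 18.1 to 1189 ± 69.3 CPM (log2 fold change 1.46, edgeR adjusted p = 1.06e-24). *Fyb*, whose adapter protein ADAP binds SLP-76, rose from 314 ± 31.4 to 824 ± 52.1 CPM (1.39, edgeR adjusted p = 3.96e-20). *Vav3*, an exchange factor, fell from 61.6 ± 4.87 to 15.1 ± 2.64 CPM (-2.03, edgeR adjusted p = 2.06e-16) and the inhibitory adapter *Dok2* from 87.0 ± 6.30 to 16.4 ± 3.67 CPM (-2.41, edgeR adjusted p = 1.03e-14). *Grap2*, the gene of the SLP-76 partner Gads, fell from 1.204 ± 0.365 to 0.0499 ± 0.0463 CPM, a level of few counts (-4.58, edgeR adjusted p = 8.47e-09). On activation of *Ahr*-/- BMMs at 20 h, 15 rose and 10 fell, with a median of 0.05 (0.02 over all genes). Here 28.3% of all genes were called higher and 26.0% lower.

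**Figure D4:**
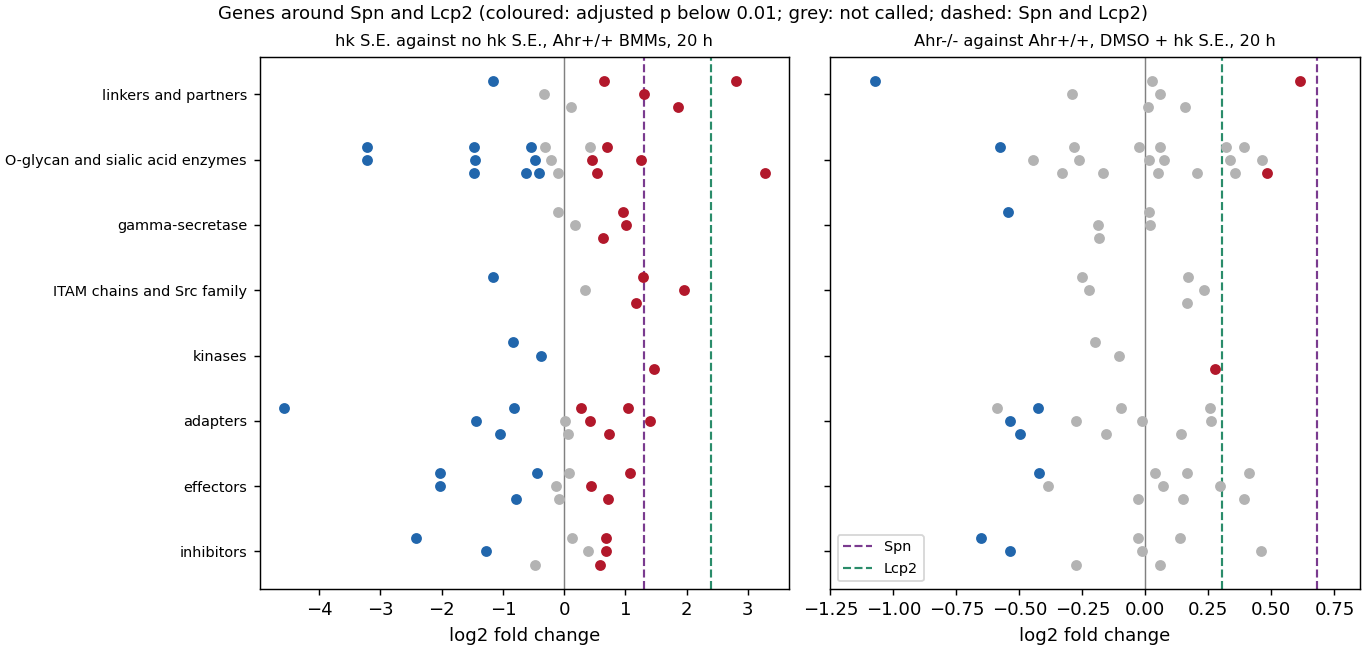
Log2 fold changes (x axis) of the genes around *Spn* (upper 3 rows) and *Lcp2* (lower 5 rows) for activation in *Ahr*+/+ BMMs at 20 h (left) and for *Ahr*-/- against *Ahr*+/+ BMMs given hk *S*.E. after DMSO at 20 h (right), with called genes in colour. Members of each group lie on either side of 0, and the dashed lines give *Spn* (1.31 and 0.68) and *Lcp2* (2.39 and 0.31).

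In the genotype comparison after DMSO and hk *S*.E. at 20 h, 2 of the 30 genes around sialophorin were higher and 3 lower in *Ahr*-/- BMMs, with a median log2 difference of 0.02 (0.01 over all genes) and 5.06% and 7.39% of all genes called. The integrin ligand *Icam1* was at 287 ± 21.2 against 188 ± 17.7 CPM (log2 difference 0.61, edgeR adjusted p = 1.41e-07) and the sialyltransferase *St3gal4* at 17.3 ± 2.44 against 12.4 ± 1.39 CPM (0.48, edgeR adjusted p = 0.00485). *Siglec1* was lower at 446 ± 140 against 937 ± 199 CPM (-1.07, edgeR adjusted p = 5.35e-04), and so were *Galnt6* (-0.58, edgeR adjusted p = 2.33e-06) and the γ-secretase gene *Psen2* (-0.54, edgeR adjusted p = 2.96e-05). With I3C, *Icam1*, *St3gal4*, *Siglec1* and *Galnt6* were called in the same directions, with log2 differences of 0.80, 0.58, -0.96 and -0.44 (edgeR adjusted p up to 0.00149), and *Gcnt1* was lower (-0.61, edgeR adjusted p = 6.77e-04), where 7.47% and 8.17% of all genes were called.

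Of the SLP-76 list, 1 gene was higher and 6 lower after hk *S*.E. with DMSO at 20 h in *Ahr*-/- BMMs, with a median of -0.01, beside 5.06% and 7.39% of all genes. The Tec family kinase *Btk* was at 87.7 ± 7.61 against 72.3 ± 4.32 CPM (log2 difference 0.28, edgeR adjusted p = 0.00430). The lower genes included the inhibitory adapter *Dok1* (66.3 ± 7.16 against 104 ± 5.67 CPM, -0.65, edgeR adjusted p = 1.45e-05), the adapter *Nck2* (-0.54, edgeR adjusted p = 0.00113) and the ubiquitin ligase *Cblb* (-0.54, edgeR adjusted p = 0.00633). With I3C, the kinase *Prkcd* was higher (0.47, edgeR adjusted p = 0.00515) and 7 genes were lower, beside 7.47% and 8.17% of all genes, among them *Cblb* (-0.69), *Vav3* (-0.58) and *Nck2* (-0.51). The activation response itself differed between genotypes at 20 h in 4 of the 67 genes of the lists, beside 4.41% of all genes, and these were named after their values were seen. These were *St3gal2* (0.70), *Psen2* (-0.57), *Fyb* (-0.70) and *Dok1* (-0.66), with edgeR adjusted p of 1.14e-04 to 0.00586.

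At 3 h, the SLP-76 list had 1 gene lower in *Ahr*-/- BMMs after DMSO, 1 higher and 1 lower with I3C, and 2 higher and 1 lower with BaP. The sialophorin list had 1 gene lower with BaP. These counts stood beside 2.83%, 2.85% and 4.88% of all genes called with DMSO, I3C and BaP. The phosphatase *Ubash3b*, a negative regulator of Syk, was lower in *Ahr*-/- BMMs after DMSO (71.6 ± 5.49 against 103 ± 16.5 CPM, log2 difference -0.52, edgeR adjusted p = 3.25e-04), with I3C (-0.57, edgeR adjusted p = 7.55e-05) and with BaP (-0.62, edgeR adjusted p = 1.28e-05). *Syk* was higher with I3C (0.31, edgeR adjusted p = 0.00420) and with BaP (0.39, edgeR adjusted p = 2.35e-04). With BaP, *Vav2* was higher (0.54, edgeR adjusted p = 1.28e-04) and *Galnt7* lower (-0.52, edgeR adjusted p = 0.00188). No gene of either list was called in resting BMMs by edgeR or DESeq2. Of all genes, edgeR called 1.21% and 0.702% there at 3 h and 20 h, and DESeq2 called 268 and 194 genes. An unadjusted p from edgeR below 0.05 was found for 6 and 8 of the 67 genes, beside 9.99% and 12.5% of all genes. Over the 8 comparisons of a ligand with DMSO, edgeR and DESeq2 also called no gene of the lists. Over all genes, edgeR called 173 of 116296 values and DESeq2 called 323. The unadjusted p from edgeR was below 0.05 in 9 of 240 values of the sialophorin list and 5 of 296 of the SLP-76 list (3.75% and 1.69%), beside 5.27% over all genes.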

How the data were processed

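RNA-seq counts of 64 libraries of mouse BMMs were analysed. The authors trimmed the reads, aligned them to mm10 with HISAT2 2.1.0 and deposited raw counts of read pairs per GENCODE M22 gene from HTSeq 0.9.1, counted by strand. The authors also deposited a table of variance-stabilised values on a log2 scale, used here as an alternative. In the count files, 5 entries that name no gene held 19.2 to 25.1% of the read pairs and were left out. Groups came from the titles. Genes were filtered with filterByExpr (minimum count 10) and scaled by TMM, and 14537 genes were fitted with edgeR 4.0.16 (R 4.3.3), quasi-likelihood, over 16 group means and all libraries, with Benjamini-Hochberg adjustment and a threshold of 0.01. CPM use the TMM-scaled totals. The fit was tested on simulated data. Alternatives were DESeq2 1.42.0, limma 3.58.1 on the deposited log2 values, RLE size factors, library totals, no filter, the identifier series, a replicate block, the compared groups alone and leaving out each library. The labels do not say that replicate numbers mark mice. Deviations of all 4 same-numbered pairs of libraries correlated above 0.1 in 8 of 10 comparisons within *Ahr*-/- and 2 of 10 within *Ahr*+/+ BMMs, where the numbers act as pairs. Intervals are 95% intervals of the fit. The members and lists were chosen with earlier results of these data known. Named list genes are the 3 with the largest called log2 fold change in each direction on activation in *Ahr*+/+ BMMs at 20 h, and those called between genotypes or by a ligand, up to 3 per direction where a list had over 6. Some genes that this rule or the lists include are not reported here. Genes most like a member are the 5 with the highest Pearson r. Promoters are from RefSeq, and exon lengths and overlaps from the annotation tables (GRCm38).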

Additional observations from a re-analysis of the deposited data

Results flagged for a closer look

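The *Lcp2* level of replicate 1 of activated *Ahr*+/+ BMMs at 20 h stood apart below the other 3 libraries with DMSO, at 353 CPM (gap over range 0.867), and with I3C, at 324 CPM (0.880), both above Dixon's 95% critical value for 4 samples. These were 2 of the 32 sets of 4 libraries tested, and chance flags about 1 in 20. Without the DMSO library, the log2 difference of *Lcp2* between genotypes after DMSO was 0.25 (edgeR adjusted p = 0.0105). The activation of *Spn* at 20 h differed between genotypes, by 0.96 on the log2 scale, in the test of the difference itself (edgeR adjusted p = 8.10e-04). Its activated *Ahr*+/+ libraries belong to the contrast that chose the gene, and genotype cannot be told apart from identifier series in the activated libraries. The cause of each was not tested.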

How the results depend on the processing

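Apart from leaving out libraries, 16 of 601 values under alternatives changed their call, their direction or, where no test applied, their size. Under library totals, chosen after seeing the data, *Spn* on activation at 3 h was -0.44 in *Ahr*+/+ and -0.46 in *Ahr*-/- BMMs, *Lcp2* between genotypes with BaP at 20 h was 0.69, and *Spn* over time in resting *Ahr*+/+ BMMs was 0.53 and called. The last was also called with the replicate block (0.50), in the compared groups alone (0.50) and by DESeq2 (0.51). In the compared groups alone, calls were lost for *Spn* (0.71) and *Lcp2* (0.34) between genotypes after DMSO at 20 h, for the activation of *Spn* by genotype at 20 h (0.96) and for *Lcp2* over time in resting *Ahr*-/- BMMs (0.23). The identifier series removed the calls of *Lcp2* between genotypes after DMSO (0.31) and over time in resting *Ahr*-/- BMMs (0.25), and testing without a filter the latter (0.26). Without a filter, the SLP-76 list had 0 genes higher between genotypes after DMSO at 20 h and 4 lower with I3C. Leaving out single libraries changed 9 of 640 values, with ranges of 0.25 to 0.35 for *Lcp2* between genotypes after DMSO at 20 h (call lost without *Ahr*+/+ replicate 1), 0.41 to 0.56 for *Spn* over time in resting *Ahr*+/+ BMMs (called without replicate 3 of 20 h) and 0.22 to 0.27 for *Lcp2* over time in resting *Ahr*-/- BMMs (call lost in 7 of 8). Causes were not tested. The replicate block changed no other call and was not run between genotypes, whose libraries come from different mice.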
